A study of Sus scrofa with 9 samples.

Results

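The genes described here are those of the interferon response and of antigen presentation, taken from a list of 45 gene symbols in porcine embryonic fibroblasts (PEF) treated with insulin. Of the 45 symbols, 42 were matched to a gene among the 30477 gene IDs of the files, and B2M, IFIT3 and XAF1 found no match and were not analysed here. Of the 42, 40 passed the filter on low values, which left 11063 genes in all. The other 2 were NLRC5 and ISG20, which stayed at or below 0.57 and 0.47 FPKM (fragments scaled to gene length and to the mapped fragments of a library). Each of the 40 tested genes was at 1.39 FPKM or more in every library, so none of them passed through a group in which it was high. They fell by role into 7 antigen processing genes, 5 receptor and kinase genes, 6 transcription factors, 8 sensors and regulators, and 14 antiviral effectors.

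RNA was sequenced from PEF, cultured fibroblasts derived from pig embryos, after depletion of ribosomal RNA. There were 3 libraries of untreated cells collected at 0 h, 3 libraries at 48 h after insulin was added and 3 at 72 h. No untreated culture of 48 h or 72 h was analysed here, so insulin and time in culture cannot be told apart in any difference from 0 h. The labels give no genetic change, strain or sex, and the sources used here do not state the insulin concentration. The submitters describe the 3 libraries of a time as biological replicates without saying what was replicated, so p-values measure the spread between these libraries. The 48 h and 72 h comparisons share the same 0 h libraries.

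Interferons are secreted proteins, and those of type I are released by cells on sensing viral nucleic acid. Interferons bind receptors that act through Janus kinases and STAT and IRF transcription factors, and so switch on antiviral genes. Among the genes that interferon induces are those of antigen processing, in which the immunoproteasome cuts proteins into peptides, the TAP transporter carries the peptides into the endoplasmic reticulum, and tapasin helps load them onto MHC class I molecules. Fibroblasts carry interferon receptors and can express such genes without infection.

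The FPKM values of a library summed to between 487858 and 497665 at 0 h, 524992 and 563656 at 48 h, and 505022 and 525471 at 72 h. FPKM files give no read counts. The steps between low values gave a relative depth of 1 in 8 libraries and 1.17 in 48 h replicate 3, whose estimate rests on 26 genes with quartiles of 0.875 and 1.29. The reference was 0 h replicate 1, which is at 1 by definition. Only values close to a gene's lowest nonzero value entered, so this estimate could not show a large difference in depth. Libraries of the same time correlated across genes at r = 0.9896 to 0.9946 and libraries of different times at 0.9559 to 0.9869, and genes are not independent replicates. The summed level of 9 fibroblast markers was 21233 to 22152 FPKM at 0 h, 18957 to 20262 at 48 h and 21653 to 22057 at 72 h, a sum made up mostly of COL1A1, COL1A2 and VIM. Of 14 leukocyte markers, PTPRC and CD3E were listed at 0 in all 9 libraries and 10 stayed below 1 FPKM in all of them.

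At 48 h, 30 of the 40 tested genes rose and 0 fell, and at 72 h, 19 rose and 6 fell. Against 0 h, 7 of the 7 antigen processing genes rose at 48 h and 6 at 72 h. Of the 14 antiviral effectors 10 rose at 48 h, and at 72 h 5 rose and 4 fell. Of the 8 sensors and regulators 6 rose at 48 h, and at 72 h 0 rose and 2 fell. The difference between roles was not tested. On the log2(FPKM + 1) scale the widest rise was that of BST2, which encodes tetherin, a protein that holds budding virus at the cell surface. Its mean FPKM was 3.02 times the untreated mean at 48 h and 2.77 times at 72 h, and for the less abundant PSMB9 the 48 h ratio was 3.15. A rise or fall here means an adjusted p below 0.05 in limma, two-sided, with Benjamini-Hochberg adjustment over all 11063 genes. A change is given as the difference of log2(FPKM + 1) with its standard error (SE). In bulk samples, fewer cells of a type and less RNA per cell cannot be told apart.

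Over the 11063 genes the calls at 48 h came to 49.9%, of which 27.6% were rises and 22.4% falls. The calls at 72 h came to 45.5%, with 23.0% rises and 22.5% falls. The median change of the 40 genes was 0.40 at 48 h against 0.02 over all tested genes, and 0.185 at 72 h against -0.008. In 30 of the 40 genes all 48 h libraries were above all 0 h libraries, and in 0 genes all were below, beside 32.4% and 27.6% of all tested genes. At 72 h the same counts were 23 and 5, beside 28.1% and 30.4% of all tested genes. Scaling the libraries to equal FPKM sums moved the median of all genes at 48 h to -0.096 and changed the share of all calls that were higher from 55.2% to 34.7%, and on that scale 24 of the 40 genes were called higher and 2 lower, with a median of 0.269. The genes' call counts at 48 h were 29 higher and 0 lower under median of ratios scaling, and 29 higher and 1 lower under quantile normalization. With equal FPKM sums the 48 h changes of TAP1 (0.25), IRF9 (0.21), USP18 (0.20), IFI44 (0.17) and IFI44L (0.19) were also smaller by over 1.5 times, yet still called. When a smooth trend on gene span was removed within each library, the 48 h changes were smaller by over 1.5 times, yet still called, for TAP1 (0.20), TAP2 (0.27), IRF1 (0.31), IRF3 (0.34), IRF7 (0.54), ISG15 (0.55), IFI6 (0.32) and IFI44 (0.18).

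**Figure D1:**
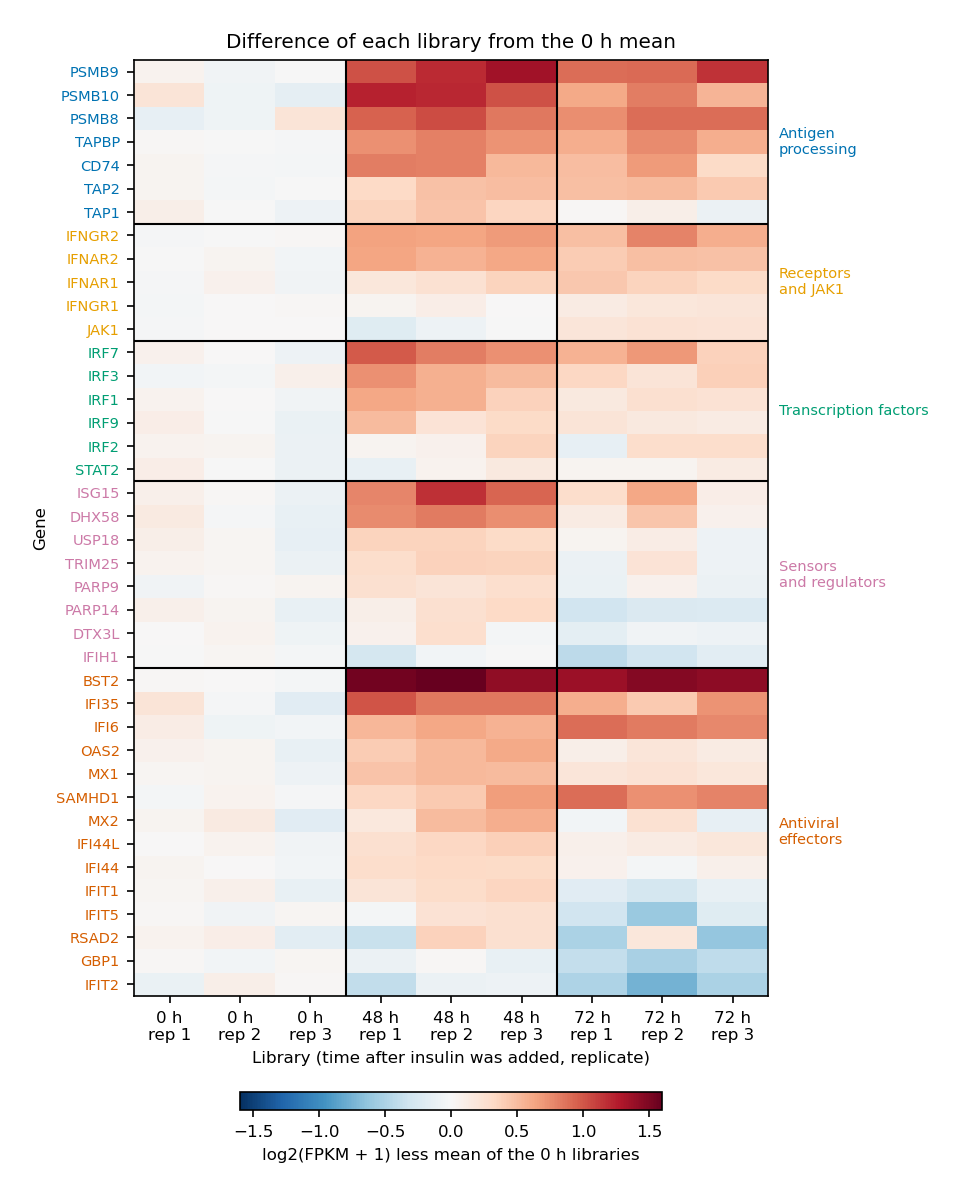
Each row is a gene, its symbol coloured by role, and each column a library (time after insulin, replicate). Colour gives log2(FPKM + 1) less the mean of the 3 libraries at 0 h. The 48 h columns are mostly above 0 in all roles, while at 72 h the antigen processing rows other than TAP1 stay above 0 and IFIT2, IFIT5 and GBP1 lie below it.

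All 7 tested antigen processing genes rose at 48 h, by a median of 0.754, and 6 of them rose at 72 h, by a median of 0.64. PSMB8, PSMB9 and PSMB10 encode the 3 catalytic subunits that replace their constitutive counterparts in the immunoproteasome. PSMB9 was at 1.59, 1.39 and 1.48 FPKM at 0 h, at 4.02, 4.70 and 5.32 at 48 h, and at 3.62, 3.66 and 4.52 at 72 h. All 6 libraries of insulin-treated cells were above all untreated ones. Its change was 1.19 ± 0.10 (SE, adjusted p = 1.2e-05) at 48 h and 0.98 ± 0.10 (adjusted p = 2.58e-05) at 72 h.

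PSMB10 was at 13.0, 10.5 and 9.99 FPKM at 0 h, at 27.5, 27.0 and 23.5 at 48 h, and at 17.4, 20.3 and 16.6 at 72 h. The 3 times did not overlap, with 72 h in between. The change was 1.15 ± 0.11 (adjusted p = 1.59e-05) at 48 h and 0.66 ± 0.11 (adjusted p = 5.22e-04) at 72 h, and the difference between 72 h and 48 h was -0.50 ± 0.11 (adjusted p = 0.00753). PSMB8 was at 13.1, 13.7 and 16.9 FPKM at 0 h, at 28.8, 30.9 and 26.8 at 48 h, and at 24.9, 27.6 and 27.8 at 72 h. The treated libraries lay well above the untreated ones and the 48 h and 72 h libraries overlapped. PSMB8 changed by 0.95 ± 0.09 (adjusted p = 2.84e-05) at 48 h and 0.84 ± 0.09 (adjusted p = 3.83e-05) at 72 h.

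Other proteasome beta subunits changed less than PSMB8, PSMB9 and PSMB10. Of 5 tested (PSMB5 and PSMB6 were not matched), PSMB1, PSMB2, PSMB3 and PSMB4 rose at 48 h, when 27.6% of all tested genes rose. At 72 h 0 were called, and the medians were 0.203 at 48 h and 0.015 at 72 h. PSMB10 replaces PSMB7 in the immunoproteasome. Of the 5, only PSMB7 is a counterpart that is replaced, and it was not called at 48 h (0.17, adjusted p = 0.121). The ratio of PSMB10 to PSMB7 FPKM was 0.088, 0.071 and 0.061 at 0 h, 0.143, 0.153 and 0.155 at 48 h, and 0.121, 0.131 and 0.116 at 72 h, with no overlap between the times.

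TAPBP, which encodes tapasin, was at 40.7, 39.8 and 39.5 FPKM at 0 h, at 67.2, 70.6 and 66.5 at 48 h, and at 60.3, 68.4 and 60.2 at 72 h. Both treated times lay above 0 h and overlapped each other. Its change was 0.75 ± 0.06 (adjusted p = 7.79e-06) at 48 h and 0.64 ± 0.06 (adjusted p = 1.28e-05) at 72 h. The subunits of the peptide transporter differed from each other in time course. TAP2 rose from a mean of 22.9 FPKM to 31.1 and 32.1, changes of 0.43 and 0.47. TAP1 rose at 48 h, from 30.9 to 40.6 FPKM, and was at 31.0 at 72 h, a difference from 0 h of 0.00 (adjusted p = 0.965).

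CD74, the invariant chain that escorts MHC class II molecules, rose from 133 ± 3.15 FPKM (SD, n = 3) to 220 ± 24.7 at 48 h and 188 ± 24.7 at 72 h. It was among the 4 listed genes above 100 FPKM at 0 h. NLRC5, an activator of MHC class I genes, was not tested and was at 0.32 to 0.42 FPKM at 0 h, 0.40 to 0.48 at 48 h and 0.41 to 0.57 at 72 h. In the RefSeq annotation of Sscrofa11.1, TAP2 (chr7:25045085-25056915), PSMB8 (chr7:25058456-25061666), TAP1 (chr7:25062772-25071989) and PSMB9 (chr7:25072133-25077508) are neighbours, with 1540, 1105 and 143 bp between them. TAPBP lies on the same chromosome (chr7:29663491-29673453) and PSMB10 on another (chr6:28544910-28547609).

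Of the interferon receptor genes and the kinase JAK1, 3 of 5 rose at 48 h and 5 of 5 at 72 h, with medians of 0.263 and 0.361. IFNGR2, the chain of the type II interferon receptor that brings in the kinase JAK2, was at 24.1, 24.3 and 24.9 FPKM at 0 h, at 38.9, 38.5 and 39.6 at 48 h, and at 34.6, 43.2 and 37.1 at 72 h. All treated libraries were above the untreated ones. It changed by 0.65 ± 0.07 (adjusted p = 7.23e-05) and 0.62 ± 0.07 (adjusted p = 6.59e-05). IFNAR2, a chain of the type I interferon receptor, was at 12.6, 13.2 and 12.3 FPKM at 0 h, at 20.1, 19.1 and 20.0 at 48 h, and at 17.1, 18.2 and 18.04 at 72 h. The 3 times did not overlap, with 48 h highest. Its change was 0.60 ± 0.06 (adjusted p = 2.5e-05) at 48 h and 0.45 ± 0.06 (adjusted p = 1.1e-04) at 72 h.

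IFNAR1, the other chain of that receptor, was at 16.7, 17.8 and 16.2 FPKM at 0 h, at 19.3, 20.2 and 21.9 at 48 h, and at 23.1, 21.8 and 21.1 at 72 h. Its treated libraries were all above the untreated ones. It changed by 0.26 ± 0.07 (adjusted p = 0.00871) and 0.36 ± 0.07 (adjusted p = 0.00141), and the 48 h call was lost with equal FPKM sums (adjusted p = 0.184). JAK1, a kinase bound to interferon and many cytokine receptors, was at 35.3, 36.2 and 36.1 FPKM at 0 h, at 31.2, 33.8 and 35.8 at 48 h, and at 41.0, 42.4 and 41.9 at 72 h. The 72 h libraries alone stood above 0 h. Its change was -0.09 ± 0.06 (adjusted p = 0.218) at 48 h and 0.21 ± 0.06 (adjusted p = 0.0138) at 72 h.

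The 48 h value of JAK1 was called lower with equal FPKM sums (-0.23, adjusted p = 0.0227) and with quantile normalization (-0.17, adjusted p = 0.0395). Its 72 h call was lost without 0 h replicate 1 (adjusted p = 0.0516) and with equal FPKM sums (adjusted p = 0.0925). IFNGR1, the ligand-binding chain of the type II receptor, had means of 7.71, 8.04 and 8.78 FPKM, and its call at 72 h (0.17, adjusted p = 0.0496) was lost on leaving out any library except 48 h replicate 1 or 3 (adjusted p = 0.0635 to 0.149). IFNAR2 (chr13:196765915-196852640), IFNAR1 (chr13:196925731-196951398) and IFNGR2 (chr13:197007303-197035604) lie in a row, with 73090 and 55904 bp between them. The span of IFNAR2 shares 28868 bp with that of another gene model, and its reads may be split between them.

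Of the 6 transcription factors, 4 rose at 48 h and 3 at 72 h, with medians of 0.43 and 0.189, and 0 fell. IRF7, the factor that drives type I interferon genes once interferon signalling has begun, was at 12.7, 12.2 and 11.4 FPKM at 0 h, at 24.7, 22.1 and 20.6 at 48 h, and at 18.2, 20.1 and 15.9 at 72 h. The 3 times did not overlap. It changed by 0.84 ± 0.09 (adjusted p = 5e-05) at 48 h and 0.54 ± 0.09 (adjusted p = 7.31e-04) at 72 h. IRF3, which is present before infection and is activated by nucleic acid sensors, was at 18.6, 18.6 and 20.2 FPKM at 0 h, at 32.4, 28.8 and 27.6 at 48 h, and at 24.3, 22.3 and 25.2 at 72 h. Again the 3 times were separate and 72 h lay in between. IRF3 changed by 0.60 ± 0.08 (adjusted p = 1.2e-04) and 0.31 ± 0.08 (adjusted p = 0.0066), and the latter was 0.19 (adjusted p = 0.0507) with the trend on gene span removed.

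IRF1, an activator of antigen processing genes, was at 13.4, 12.9 and 12.3 FPKM at 0 h, at 20.3, 19.7 and 16.9 at 48 h, and at 14.5, 15.6 and 15.3 at 72 h. The 3 times did not overlap. It changed by 0.52 ± 0.08 (adjusted p = 3.35e-04) and 0.21 ± 0.08 (adjusted p = 0.0396), and the 72 h call was lost on leaving out any library except 48 h replicate 1 or 3 (adjusted p = 0.0529 to 0.131). That call was also lost without a filter and with equal FPKM sums (adjusted p = 0.062 to 0.0734). With the trend on gene span removed, the 72 h change was 0.15 (adjusted p = 0.0816). The whole IRF1 span of 7525 bp lies within the RefSeq span of SLC22A5, and the files' counting could have placed reads in either.

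IRF9, the DNA-binding part of the complex that type I interferon activates, was at 49.1, 45.6 and 42.4 FPKM at 0 h, at 65.1, 53.2 and 56.5 at 48 h, and at 52.6, 50.9 and 50.2 at 72 h. Each treated library was above each untreated one. The change of IRF9 was 0.34 ± 0.08 (adjusted p = 0.00532) at 48 h, which became 0.10 (adjusted p = 0.235) when the trend on gene span was removed, and 0.16 (adjusted p = 0.12) at 72 h. STAT2, which joins IRF9 in that complex, had means of 18.3, 18.8 and 19.3 FPKM, and IRF2, which can oppose IRF1, had means of 5.70, 6.5 and 6.46. Neither was called in any comparison, with adjusted p-values of 0.317 to 0.953.

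Of the 8 sensors and regulators, 6 rose at 48 h and 0 fell. At 72 h, 0 rose and 2 fell, and the median change was 0.29 and then -0.015. ISG15 encodes a ubiquitin-like protein that is attached to other proteins. It was at 333, 319 and 295 FPKM at 0 h, at 541, 709 and 600 at 48 h, and at 384, 486 and 338 at 72 h, the highest level among the listed genes at 0 h. All 72 h libraries were above 0 h and below 48 h. Its change was 0.96 ± 0.13 (adjusted p = 1.94e-04) at 48 h and 0.34 ± 0.13 (adjusted p = 0.0535) at 72 h. The 72 h value was called without 72 h replicate 3 (0.45, adjusted p = 0.0155), without 48 h replicate 1 or 2, and in the fit with the replicate number as a block (adjusted p = 0.0204).

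DHX58 encodes LGP2, a sensor of viral RNA that tunes the other sensors of its family. It was at 21.2, 18.9 and 17.6 FPKM at 0 h, at 33.0, 34.9 and 32.8 at 48 h, and at 21.1, 26.3 and 20.1 at 72 h. The 48 h libraries stood alone, and those of 72 h overlapped 0 h. DHX58 changed by 0.78 ± 0.10 (adjusted p = 1.32e-04) at 48 h, and the 72 h value was 0.21 (adjusted p = 0.102), called only without 72 h replicate 3 (0.29, adjusted p = 0.0469) among the libraries left out.

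USP18, which removes ISG15 from proteins and restrains the type I receptor, was at 42.4, 40.5 and 36.2 FPKM at 0 h, at 50.9, 50.9 and 49.3 at 48 h, and at 40.9, 42.9 and 37.5 at 72 h. All 48 h libraries lay above both other times. Its change was 0.34 ± 0.07 (adjusted p = 0.00302) at 48 h and 0.03 (adjusted p = 0.781) at 72 h. TRIM25, the ubiquitin ligase of the RNA sensor RIG-I, was at 10.4, 10.2 and 9.32 FPKM at 0 h, at 12.3, 13.2 and 13.0 at 48 h, and at 9.31, 11.7 and 9.40 at 72 h. Only the 48 h libraries were clear of 0 h. It changed by 0.33 ± 0.09 (adjusted p = 0.00961) at 48 h, which was lost with equal FPKM sums (adjusted p = 0.0712), and by 0.01 (adjusted p = 0.904) at 72 h.

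PARP14, an ADP-ribosyltransferase, was at 4.70, 4.55 and 3.96 FPKM at 0 h, at 4.77, 5.45 and 5.74 at 48 h, and at 3.36, 3.61 and 3.63 at 72 h. The 48 h libraries were the highest and the 72 h libraries the lowest. It rose by 0.23 ± 0.09 (adjusted p = 0.0487) at 48 h and fell by 0.25 (adjusted p = 0.0342) at 72 h. The 48 h call was lost on leaving out any library except 48 h replicate 1 (adjusted p = 0.055 to 0.182) and with the replicate block (adjusted p = 0.0653). It was also lost with pseudocounts of 0.1 and 0.5, without a filter, with equal FPKM sums and with median of ratios scaling. Over these and the block the adjusted p was 0.05 to 0.351. The 72 h call of PARP14 was lost without 0 h replicate 1 or 2 or without any 1 of the 72 h libraries (adjusted p = 0.0538 to 0.122). It was also lost without a filter and with quantile normalization (adjusted p = 0.0538 to 0.071).

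PARP9, which works with the ubiquitin ligase DTX3L, rose at 48 h by 0.24 (adjusted p = 0.02), a call lost without 0 h replicate 1 (adjusted p = 0.0757) and with equal FPKM sums (adjusted p = 0.178), and was at -0.04 at 72 h. DTX3L had means of 2.21, 2.46 and 1.99 FPKM and was not called (adjusted p = 0.375 and 0.413). The spans of PARP9 and DTX3L overlap by 395 bp. IFIH1, the RNA sensor MDA5, had means of 3.19, 2.89 and 2.42 FPKM. Its fall at 72 h (-0.30, adjusted p = 0.0297) was lost without any 1 of the 0 h libraries or without 72 h replicate 1 or 2 (adjusted p = 0.062 to 0.11).

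Of the 14 antiviral effectors, 10 rose at 48 h and 0 fell. At 72 h, 5 rose, 4 fell and 5 were not called, and the medians were 0.371 and 0.086. BST2 was at 20.1, 19.9 and 19.4 FPKM at 0 h, at 59.9, 64.8 and 54.4 at 48 h, and at 52.9, 56.5 and 55.1 at 72 h. The treated libraries stood far above the untreated ones and overlapped between the 2 times. The change of BST2 was 1.54 ± 0.07 (adjusted p = 1.89e-07) at 48 h and 1.42 ± 0.07 (adjusted p = 5.2e-08) at 72 h. BST2 lies at chr2:60305306-60308295.

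IFI6 and SAMHD1 were the effectors with a further rise at 72 h. IFI6, a small mitochondrial and endoplasmic reticulum protein, was at 269.5, 236 and 242 FPKM at 0 h, at 359.97, 383 and 367 at 48 h, and at 464, 442 and 426 at 72 h. The 3 times did not overlap. IFI6 changed by 0.57 ± 0.06 (adjusted p = 5.78e-05) at 48 h and by 0.83 ± 0.06 (adjusted p = 2.05e-06) at 72 h. SAMHD1, which breaks down deoxynucleotides and so limits reverse transcription, was at 13.0, 13.8 and 13.1 FPKM at 0 h, at 17.01, 18.2 and 21.8 at 48 h, and at 25.5, 22.8 and 23.9 at 72 h. Each time stood above the one before. It changed by 0.47 ± 0.09 (adjusted p = 0.00133) and 0.81 ± 0.09 (adjusted p = 2.79e-05).

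IFI35, an interferon-induced leucine zipper protein, was at 4.26, 3.51 and 3.04 FPKM at 0 h, at 8.21, 7.24 and 7.18 at 48 h, and at 5.84, 5.13 and 6.51 at 72 h. The 3 times were separate, with 48 h highest. IFI35 changed by 0.90 ± 0.11 (adjusted p = 1.09e-04) and 0.57 ± 0.11 (adjusted p = 0.00163). MX1, a dynamin-like GTPase that blocks incoming viruses, had means of 195, 273 and 224 FPKM. It rose at both times, by 0.49 and by 0.20 (adjusted p = 0.00988), and the 72 h call was lost without 0 h replicate 3 (adjusted p = 0.0568), with equal FPKM sums (adjusted p = 0.0569) and with quantile normalization (adjusted p = 0.101).

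Other effectors rose at 48 h and were not called at 72 h. They were OAS2, an activator of RNase L (0.51, then 0.14), MX2, a relative of MX1 (0.42, then 0.02), and IFI44L and IFI44, a related pair (0.32, then 0.13, and 0.30, then 0.04). The 48 h call of MX2 was lost without 0 h replicate 3 or without 48 h replicate 2 or 3 (adjusted p = 0.0691 to 0.0896) and with equal FPKM sums (adjusted p = 0.108). RSAD2, the antiviral enzyme viperin, was not called at either time. It was at 12.6, 13.1 and 10.7 FPKM at 0 h, at 9.22, 16 and 14.7 at 48 h, and at 8.24, 13.8 and 7.51 at 72 h, so its libraries overlapped across all 3 times. Without 72 h replicate 2, the RSAD2 value at 72 h was -0.56 (adjusted p = 0.0366) in place of -0.32 (adjusted p = 0.268).

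The effectors that fell at 72 h were 3 IFIT genes, whose proteins bind viral RNA, and GBP1, a GTPase induced by type II interferon. IFIT2 was at 6.32, 7.43 and 7.03 FPKM at 0 h, at 5.0, 6.41 and 6.47 at 48 h, and at 4.63, 3.69 and 4.57 at 72 h. The 72 h libraries were below all others. Its change was -0.19 ± 0.11 (adjusted p = 0.164) at 48 h and -0.58 ± 0.11 (adjusted p = 0.00131) at 72 h. GBP1 was at 11.97, 11.5 and 12.1 FPKM at 0 h, at 11.06, 11.97 and 10.8 at 48 h, and at 8.86, 7.99 and 8.70 at 72 h. As for IFIT2, the 0 h and 48 h libraries overlapped and the 72 h ones lay below both. GBP1 changed by -0.06 (adjusted p = 0.449) and -0.43 ± 0.07 (adjusted p = 3.87e-04).

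IFIT5 was at 41.7, 39.6 and 42.0 FPKM at 0 h, at 40.0, 48.3 and 49.4 at 48 h, and at 33.0, 26.8 and 35.7 at 72 h. Only the 72 h libraries were clear of the others. IFIT5 changed by 0.15 (adjusted p = 0.263) and -0.37 ± 0.11 (adjusted p = 0.0156), and the 72 h call was lost without 0 h replicate 3 or 72 h replicate 2 (adjusted p = 0.0506 and 0.0512). IFIT1 rose at 48 h (0.28, adjusted p = 0.00753) and fell at 72 h (-0.19, adjusted p = 0.0463), where its libraries of 54.4, 51.0 and 57.1 FPKM overlapped the 0 h ones of 63.5, 65.6 and 57.0 FPKM. The 48 h call of IFIT1 was lost with equal FPKM sums (0.168), quantile normalization (0.273) and the span trend removed (0.207), which are adjusted p-values. The 72 h call was lost without 0 h replicate 1 or 2, 48 h replicate 2, or 72 h replicate 1 or 2 (adjusted p = 0.0667 to 0.167) and with the replicate block (adjusted p = 0.0673).

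The IFIT1 and IFIT2 spans lie wholly within the RefSeq span of LIPA, a lysosomal lipase gene whose mean was 12.4, 14.6 and 17.02 FPKM at the 3 times. The related IFIT, MX and IFI44 genes may also share reads. The removal of the span trend is left out of the counts that follow. Of the 6 genes that fell at 72 h, 2 (IFIT2 and GBP1) kept the call under every alternative. So did 15 of the 19 that rose at 72 h and 24 of the 30 that rose at 48 h. With the span trend removed, IFIT2 (-0.63, adjusted p = 0.00123) and GBP1 (-0.46, adjusted p = 0.00017) were still called at 72 h.

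**Figure D2:**
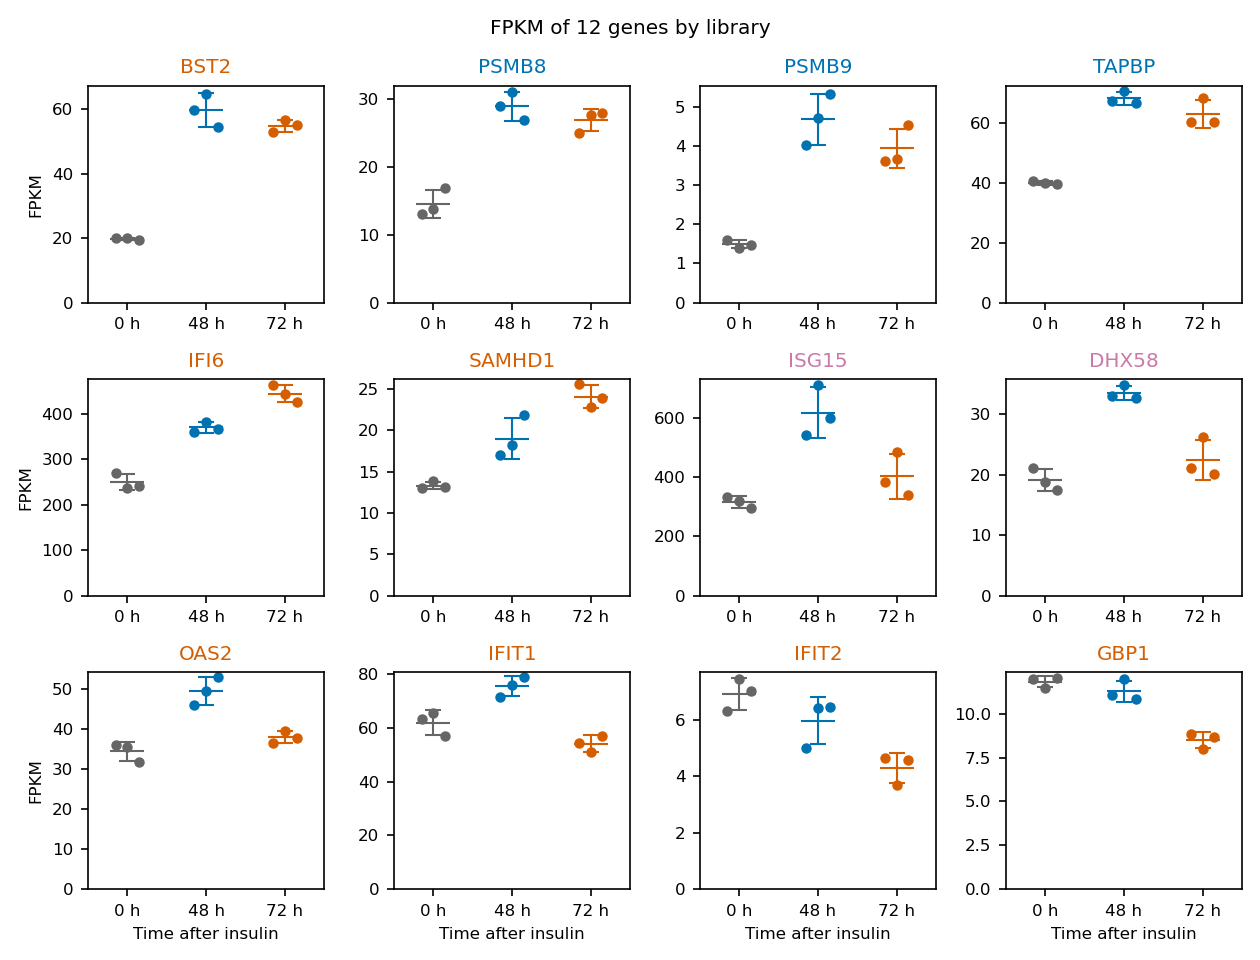
FPKM (vertical axis, from 0) of 12 genes at 0 h, 48 h and 72 h after insulin. Points are the 3 libraries of a time and bars the mean ± SD. BST2, PSMB8, PSMB9 and TAPBP stay high at 72 h, IFI6 and SAMHD1 go on rising, ISG15, DHX58, OAS2 and IFIT1 are highest at 48 h, and IFIT2 and GBP1 are lowest at 72 h (4.63, 3.69 and 4.57 FPKM for IFIT2).

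Between 48 h and 72 h, 20 of the 40 genes fell and 3 rose, with a median of -0.274 beside -0.033 over all tested genes. Of all tested genes 25.4% were called in this comparison, 9.17% higher and 16.3% lower. In 23 of the 40 genes all 72 h libraries were below all 48 h libraries and in 4 all were above, beside 23.9% and 14.9% of all tested genes. The share of all calls that were higher was 36% here, 55.9% with equal FPKM sums, 47.5% with median of ratios scaling and 48.6% with quantile normalization. On those scales 12, 17 and 17 of the 40 genes were called lower.

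The falls were those of 9 of the 14 effectors, 6 of the 8 sensors and regulators, 3 of the 6 transcription factors and 2 of the 7 antigen processing genes. Of the receptor and kinase genes 0 of 5 fell. ISG15 fell by 0.62 ± 0.13 (adjusted p = 0.00657), DHX58 by 0.57 ± 0.10 (adjusted p = 0.00264) and IFIT5 by 0.52 ± 0.11 (adjusted p = 0.0061). Next came PSMB10, the immunoproteasome subunit, which fell by 0.50 ± 0.11 (adjusted p = 0.00753). PARP14 fell by 0.48 ± 0.09 (adjusted p = 0.00317) and IFIT1 by 0.47 ± 0.07 (adjusted p = 0.00108). In the 3 genes with the widest falls, the 72 h libraries were all below the 48 h libraries.

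The genes that rose from 48 h to 72 h were SAMHD1, by 0.33 (adjusted p = 0.0196), JAK1, by 0.31 (adjusted p = 0.00479), and IFI6, by 0.26 (adjusted p = 0.0137). BST2, PSMB8, PSMB9, TAP2, TAPBP and CD74 were not called between these times, with changes of -0.22 to 0.04. With the removal of the span trend left out of the count, 11 of the 20 lower calls and 1 of the 3 higher calls were kept under every alternative. The SAMHD1 call was lost without 48 h replicate 1 or 2 or 72 h replicate 1 (adjusted p = 0.0602 to 0.0709), and that of IFI6 without 72 h replicate 1 (adjusted p = 0.0551).

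Some of the smaller falls lost their call on leaving out a library, with a change of the same sign. The IRF1 call was lost without 48 h replicate 2 or 72 h replicate 1 (adjusted p = 0.0585 to 0.0634, change -0.28), that of IRF3 without 48 h replicate 1 or 72 h replicate 2 (0.0503 to 0.0509, change -0.25 to -0.23), and that of IRF7 without 0 h replicate 2, 48 h replicate 1 or 2, or 72 h replicate 1 or 3 (0.0504 to 0.114, change -0.31 to -0.22). Those of TRIM25 and PARP9 were lost without 72 h replicate 1 or 3, and for TRIM25 also without 48 h replicate 2 (0.0776 to 0.0867 and 0.0616 to 0.0671). The change was then -0.30 to -0.27 for TRIM25 and -0.26 for PARP9. The IFIT2 call was lost without 48 h replicate 2 or 3 or 72 h replicate 2 (0.0543 to 0.0882, change -0.34 to -0.31). For MX2 it was kept only on leaving out 0 h replicate 3, 48 h replicate 1 or 72 h replicate 2, and was otherwise at 0.0549 to 0.151 with a change of -0.39 to -0.31. For IFI44L it was kept only on leaving out 48 h replicate 1 or 72 h replicate 3, and was otherwise at 0.0519 to 0.12 with a change of -0.19 to -0.16. Leaving out a 0 h library leaves the change between 48 h and 72 h as it is and alters only the shared spread and the adjustment. With the span trend removed, the falls of IRF1 (-0.16, adjusted p = 0.0902), IRF3 (-0.14, 0.18), IRF7 (-0.14, 0.134), IFIT2 (-0.27, 0.131), IFI44 (-0.17, 0.0509), IFI44L (-0.12, 0.169) and MX2 (-0.35, 0.0782) were not called. The same removal moved TAP1 to -0.25, JAK1 to 0.19 and IFI6 to 0.41, each still called.

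**Figure D3:**
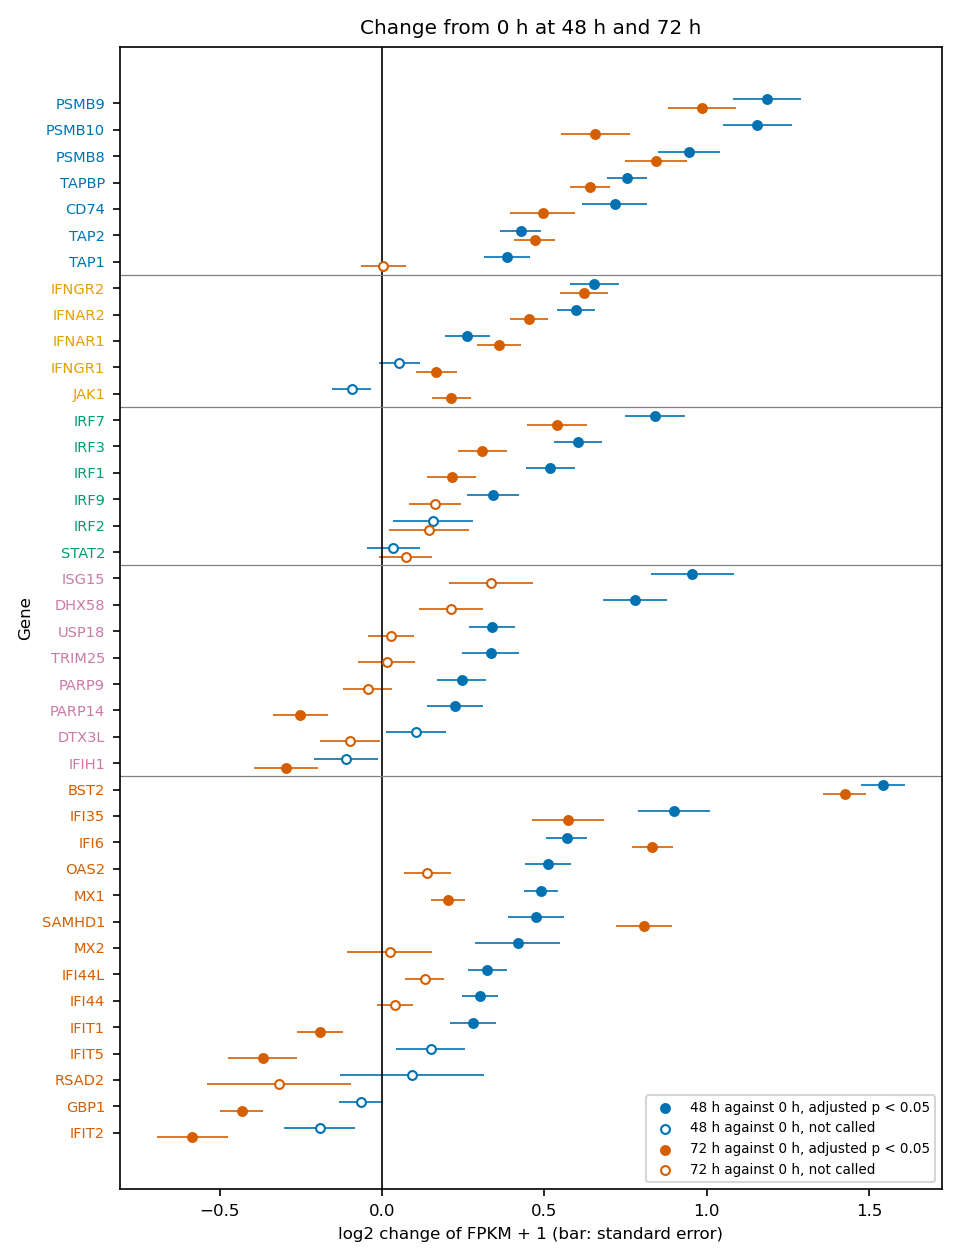
Change from 0 h on the log2(FPKM + 1) scale (horizontal axis, bars are the SE of limma) for each of the 40 tested genes at 48 h and 72 h. Filled points have an adjusted p below 0.05 and open points do not, and both times share the 0 h libraries. BST2 is farthest to the right at both times (1.54 and 1.42), and IFIT2 is farthest to the left at 72 h (-0.58).

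**Figure D4:**
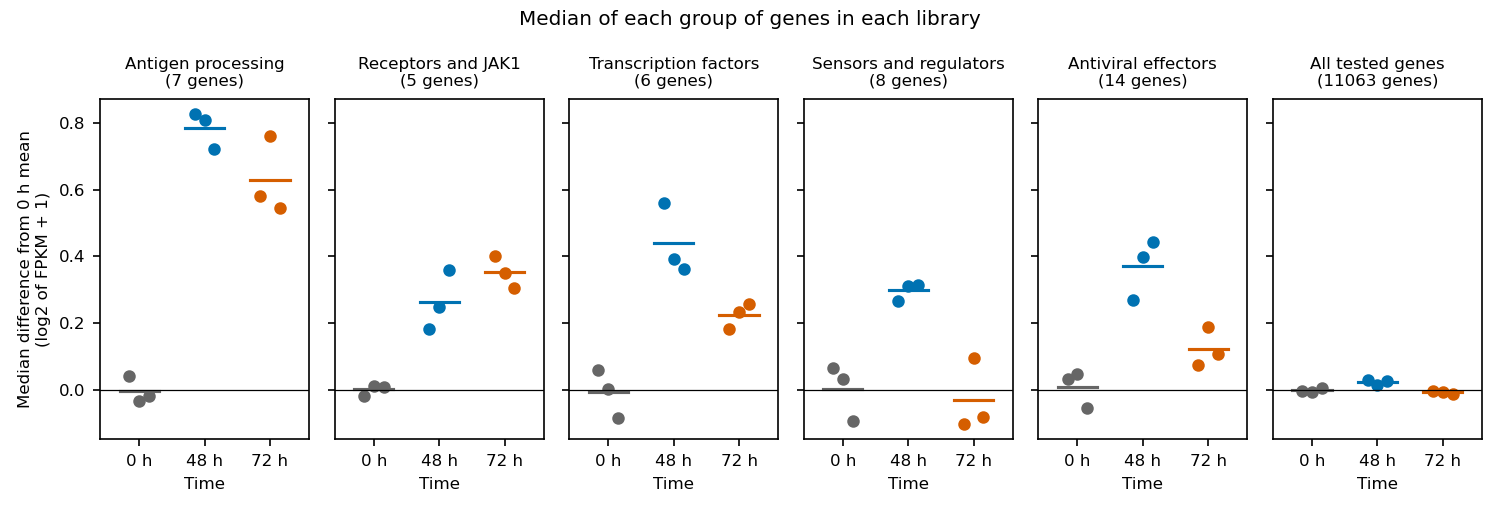
Median over the tested genes of each role of log2(FPKM + 1) less the 0 h mean (vertical axis), for each library at 0 h, 48 h and 72 h. The antigen processing medians are 0.825, 0.807 and 0.720 at 48 h and 0.581, 0.760 and 0.545 at 72 h, while those of sensors and regulators are 0.267, 0.311 and 0.315 at 48 h and -0.101, 0.094 and -0.082 at 72 h.

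For antiviral effectors the library medians were 0.269, 0.398 and 0.443 at 48 h and 0.075, 0.188 and 0.107 at 72 h. For receptors and JAK1 they were 0.182, 0.247 and 0.360 at 48 h and 0.400, 0.351 and 0.304 at 72 h. The medians of all tested genes stayed between -0.013 and 0.029 in the treated libraries. Levels ranged widely, and at 0 h 4 of the 42 genes (ISG15, IFI6, MX1 and CD74) had a mean above 100 FPKM, 26 were between 10 and 100, 10 between 1 and 10, and 2 below 1.

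Further genes of the pathway were taken from lists that do not include the genes above. Leaving aside the 5 proteasome beta subunits above, 69 were matched and 50 tested. Of the 50, 27 rose and 5 fell at 48 h, and 19 rose and 8 fell at 72 h, with medians of 0.288 and 0.164. PTPN6, SOCS1 and ERAP2 were below 1 FPKM in all 0 h libraries. They passed the filter only through treated libraries in which they were high, so their calls, which these counts include, are no independent support. Of all tested genes, 27.6% rose and 22.4% fell at 48 h, and 23.0% rose and 22.5% fell at 72 h. Among the ligands, IFNB1, IFNG and IFNK were listed at 0 FPKM in all 9 libraries, and IFNE reached at most 0.28. IFNA1, IFNW1, IFNL1 and IFNL3 found no match by symbol, so their levels are not known here. Of 10 other receptor and signalling genes, 7 rose and 2 fell at 48 h, and 6 rose and 1 fell at 72 h. SOCS3, an inhibitor of Janus kinases, rose by 0.62 and 0.72, and PTPN6, a phosphatase that acts on them, by 0.72 and 0.65.

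Of 9 other sensing genes, 5 rose at 48 h, and 1 rose and 1 fell at 72 h. ZBP1, a sensor of Z-form nucleic acid, rose by 0.61 ± 0.11 (adjusted p = 0.00144) at 48 h and was at 0.17 at 72 h. RIGI, the RNA sensor RIG-I, was at 0.10 at 48 h and fell by 0.33 (adjusted p = 0.0468) at 72 h. IKBKE, a kinase that activates IRF3 and IRF7, rose by 0.33 at 48 h and was at 0.16 at 72 h. Of 19 other antiviral genes, 9 rose and 2 fell at 48 h, and 7 rose and 5 fell at 72 h. For both lists the shares of all tested genes were 27.6% higher and 22.4% lower at 48 h, and 23.0% and 22.5% at 72 h.

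LGALS3BP, a secreted galectin-binding glycoprotein, rose from 83.6 ± 3.18 FPKM (SD, n = 3) to 208 ± 12.2 and 222 ± 13.3, changes of 1.30 and 1.40. SHFL, which blocks ribosomal frameshifting, rose by 1.05 and 0.92. UBE2L6, the enzyme that conjugates ISG15, rose by 1.04 and 0.84. Of 12 other antigen processing genes, 6 rose and 1 fell at 48 h, and 5 rose and 1 fell at 72 h. The shares of all tested genes were again 27.6% higher and 22.4% lower at 48 h, and 23.0% and 22.5% at 72 h. PSME1 and PSME2 encode the proteasome activator PA28. PSME1 rose from 74.1 ± 1.71 FPKM (SD, n = 3) to 176 ± 14 and 161 ± 6.95, changes of 1.24 and 1.11, and PSME2 by 1.01 and 0.86. ERAP2, which trims peptides in the endoplasmic reticulum, was at 0.60 to 0.99 FPKM at 0 h and passed the filter only through treated libraries. It was at 1.68 to 2.23 FPKM at 48 h and 1.94 to 3.25 at 72 h, with changes of 0.71 and 0.94. The MHC class I genes of the pig found no match by symbol and were not used here. The class II genes SLA-DMA, SLA-DMB and SLA-DQB1 reached at most 0.08, 0.39 and 0.75 FPKM, while SLA-DRA, SLA-DRB1 and SLA-DQA1 found no match.

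Fibroblast markers also changed in both directions, while their sum shows only a fall at 48 h. Of 9, 4 rose and 3 fell at 48 h, and 5 rose and 1 fell at 72 h. Of all tested genes, 27.6% rose and 22.4% fell at 48 h, and 23.0% rose and 22.5% fell at 72 h. PDGFRA, a growth factor receptor, rose from a mean of 9.34 FPKM to 26.9 and 36.4, and the matrix proteoglycans LUM and DCN rose from 12.7 to 33.8 and 48.3 and from 26.5 to 46.9 and 72.2 FPKM. The collagen genes COL1A1, COL1A2 and COL3A1 fell at 48 h, by 0.21, 0.41 and 0.33 on the log2 scale.

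Some markers of other cell types moved along with these genes. The leukocyte markers summed to 34.4 to 38.0 FPKM at 0 h, 57.6 to 60.0 at 48 h and 43.3 to 72.2 at 72 h. CD79A, at 9.77 to 12.9, 29.3 to 31.5 and 15.9 to 42.1 FPKM, rose at both times, as did CD14, from a mean of 1.83 to 4.03 and 4.05 FPKM (adjusted p = 7.81e-04 and 6.24e-04). LYZ, at means of 22.8, 22.2 and 23.1 FPKM, was not called, and PTPRC and CD3E were at 0. The epithelial markers summed to 5.83 to 6.96 FPKM at 0 h, 12.6 to 13.9 at 48 h and 9.68 to 10.7 at 72 h. KRT8, a keratin, carried most of that sum and rose from a mean of 5.98 FPKM to 11.8 and 8.95 (adjusted p = 3.09e-05 and 8.76e-04), and EPCAM was at 0.08 or below. The endothelial markers summed to 0.68 to 1.35 FPKM over all libraries, with CDH5 at 0. The part of these markers, those of fibroblasts included, in the results was not tested.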

How the data were processed

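Per the file headers, the authors deposited an FPKM value for each gene in each library. RSEM 1.2.28, HISAT2 2.1.0, featureCounts 2.0.2, DESeq2 and the build Sscrofa11.1 are named in the submitters' processing notes, without role or order. The tool that made the FPKM values and any use of strand in counting are not stated there, so overlapping genes may share reads. FPKM is scaled within a library, so very abundant transcripts that rise lower all others.

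Groups and replicate numbers came from the labels. Symbols were found for 14864 of 30477 gene IDs, and coordinates come from RefSeq matched by symbol. The 11063 genes (9875 with a symbol) that reached 1 FPKM in 3 or more libraries were tested with limma 3.58.1 (R 4.3.3) on log2(FPKM + 1), which understates changes of low genes, in a single fit of 9 libraries with group as the only term and a trend in the prior variance. Calls are two-sided with Benjamini-Hochberg adjusted p below 0.05. The fit was tested on simulated data.

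The genes and lists were chosen with earlier results of these data known. Full values are given for the 4 called genes with the largest change in each role, up to 2 called genes that moved against their role, and the 5 largest called changes between 48 h and 72 h, and the 3 largest in each further list; other genes named with values were added to account for the whole list. A gene that this rule names in a further list is not reported here. Alternatives were other pseudocounts, filters, scalings, library weights, a replicate block, no variance trend and each library left out, and, chosen after seeing the data, removal of a smooth trend on gene span. Deviations of same-numbered libraries of different times correlated at -0.071 to 0.193 over 9 pairs. Those of differently numbered libraries correlated at -0.182 to 0.174 over 18 pairs. The ranges overlapped and the labels state no pairing, and the numbers were not taken as pairing. A planned description of promoter motifs was not run, since no sequences were used here.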

Additional observations from a re-analysis of the deposited data

Results flagged for a closer look

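For 23 genes the change at 72 h differed from the change at 48 h by limma's test of that difference, which equals the comparison of 72 h with 48 h since the 0 h libraries are shared. The difference of the log2 changes was above 0 in SAMHD1 (0.33), JAK1 (0.31) and IFI6 (0.26). Among antigen processing genes it was -0.50 in PSMB10 and -0.38 in TAP1. Among transcription factors it was -0.30 in IRF1, -0.29 in IRF3 and -0.30 in IRF7. Among sensors and regulators it was -0.62 in ISG15, -0.57 in DHX58, -0.48 in PARP14, -0.32 in TRIM25, -0.31 in USP18 and -0.29 in PARP9. Among effectors it was -0.52 in IFIT5, -0.47 in IFIT1, -0.39 in IFIT2, -0.39 in MX2, -0.37 in OAS2, -0.37 in GBP1, -0.29 in MX1, -0.26 in IFI44 and -0.19 in IFI44L. The calls lost without some 1 library were those of IRF1, IRF3, IRF7, TRIM25, PARP9, IFIT2, IFI6, IFI44L, MX2 and SAMHD1.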

How the results depend on the processing

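Over the 40 genes and 3 comparisons no change that was called took the opposite sign under any alternative. With 1 library left out, 989 of 1080 values kept their call or lack of one, 79 lost a call and 12 gained one. Under the other alternatives, leaving aside the span trend, 1117 of 1188 kept it, 48 lost a call and 23 gained one. Equal FPKM sums gave 2 genes called lower at 48 h, 12 between 72 h and 48 h, and medians of 0.269, 0.132 and -0.194 for 48 h, 72 h and their difference. Quantile normalization gave 1 gene lower at 48 h and medians of 0.334 at 48 h and -0.199 between the treated times. Removing the trend on gene span, chosen after seeing the data, gave 1 gene lower at 48 h, 13 lower between the treated times, and medians of 0.321 and -0.163. Library weights, whose estimation stopped before its tolerance, gave 1 gene lower at 48 h and 5756 genes called between the treated times, against 2814. The weight of 48 h replicate 2 was 21.8, beside 0.268 and 0.353 for 48 h replicates 1 and 3. The 48 h values of that fit thus rest mostly on 1 library. Without a filter, 3 genes fell at 72 h. With 1 library left out, the median at 48 h was 0.334 to 0.437, 3 to 6 genes fell at 72 h, 1 to 3 rose between the treated times, and 1727 to 3693 of all genes were called there. A replicate block, though the numbers were not taken as pairing, gave 5632, 5152 and 3031 genes called against 5524, 5029 and 2814. It ended the calls of PARP14 at 48 h and of IFNGR1 and IFIT1 at 72 h, and added ISG15 at 72 h and IFI35 between the treated times. The cause of these shifts was not tested. The files give no counts, and 3 libraries a time limit what can be called: the median SE of a change was 0.088.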
